A study of Mus musculus with 12 samples.

Results

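The response of mouse eosinophils to interleukin-33 (IL-33) by itself was measured by RNA sequencing in 6 libraries, 3 from cells given IL-33 and 3 from cells given an isotype antibody, out of 12 libraries in the series. These 6 were chosen by the treatment that the labels give, and all genes of the deposited count table were used. The IL-33 group received 10 ng/mL of recombinant murine IL-33, and the isotype group received 5 µg/mL of rat IgG2a, the control for the antibody used elsewhere in the series. The labels do not say whether the IL-33 cells also received the isotype antibody, and they name 2 suppliers of that antibody without saying which libraries each served. Both groups were spleen eosinophils sorted by high side scatter and green fluorescence (SSChigh4get+) from IL-5tg_4get/C57BL/6 mice, and both were kept in culture for 4 h at the same cell density. These mice carry a transgene for interleukin-5 (IL-5), which drives eosinophil production, and a green fluorescent reporter of interleukin-4 transcription, so every library comes from cells that arose under IL-5 excess. Which promoter drives the transgene is not given in the sources used here. The other 6 libraries, from cells given an antibody against the eosinophil receptor Siglec-F with and without IL-33, entered the same fit, where they add to the estimate of spread, and served to set the response beside that of cells with the antibody. Nothing states that the 3 libraries of a group are separate mice or cultures, so p-values measure no more than the library-to-library spread, which could be technical.

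IL-33 is an alarmin, a cytokine that damaged barrier cells release. It binds the receptor chain ST2, encoded by Il1rl1, together with the shared chain encoded by Il1rap, and the adaptor MyD88 and kinases of the IRAK family pass the signal to NF-kB and the MAP kinases. Eosinophils carry this receptor, and IL-33 is known to prolong their survival, increase their adhesion and make them release cytokines.

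Total counts were 15686225, 12140747 and 13883117 in IL-33 libraries 1, 2 and 3, against 14636985, 12983602 and 12046727 in the isotype libraries, and 14547 of 54532 genes had enough counts to be tested. Eosinophil markers were abundant throughout, with summed levels of 9749, 6122 and 6688 CPM (a gene's reads relative to its library's total, with TMM scaling) in IL-33 libraries against 10980, 7745 and 6458 CPM in isotype libraries over 12 genes. These sums include Adgre1, which was called higher with IL-33. The other 11 had negative log2 fold changes, with a median of -0.32 over the 12. With the replicate number as a block 1 of the 12 was higher and 1 lower. Markers of other spleen cells were present too. The 15 neutrophil markers summed to 487 to 1587 CPM with IL-33 and 1002 to 2198 CPM with isotype, and the 14 B and plasma cell markers to 963 to 1692 CPM and 1223 to 1730 CPM. No marker of neutrophils, B cells or T cells and innate lymphoid cells was called, but with the replicate number as a block 2 neutrophil, 1 B cell and 1 basophil and mast cell marker were lower. The 17 T cell and innate lymphoid markers summed to 46.5 to 201 CPM with IL-33, against 56.0 to 100.1 CPM with isotype. The 10 basophil and mast cell markers, none of them called, summed to 157 to 229 CPM with IL-33 and 146 to 189 CPM with isotype, most of it Gata2; the mast cell protease gene Tpsb2 was at 0 in all 6 libraries. The 8 dendritic cell markers summed to 442 to 600 CPM with IL-33 and 353 to 575 CPM with isotype, and 1 of the 6 tested, Batf3, rose, with a call that held only without IL-33 library 3 (highest edgeR adjusted p 0.170). None of the tested markers of erythroid cells, megakaryocytes or stroma was called, though 1 of the 3 tested stroma and endothelium markers was higher with the block. The part of these cells in the results below was not tested. In such bulk samples, fewer cells of a type and less RNA per cell cannot be told apart.

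IL-33 raised 213 genes and lowered 109 within 4 h (edgeR quasi-likelihood test, adjusted p under 0.05); such genes are termed called. They make up 1.46% and 0.749% of all tested genes, or 2.21% together. The rises were larger than the falls: 28 of the 213 rising genes changed at least 8-fold, against 2 of the 109 falling genes, and the median log2 fold change was 1.57 for rising and -1.01 for falling genes. Over all tested genes the median was -0.01. Together the rising genes took 52335 CPM with IL-33 and 19349 CPM with isotype, while the falling genes took 5841 CPM with IL-33 and 11194 CPM with isotype. Each of the 322 genes had all 3 IL-33 libraries on one side of all 3 isotype libraries; among all tested genes 11% lay wholly above and 13.1% wholly below.

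The response was weaker in IL-33 library 3. The median log2 difference from the isotype mean over the rising genes was 1.78, 1.73 and 1.06 in IL-33 libraries 1, 2 and 3, and over the falling genes -1.07, -1.22 and -0.83. Of the 213 rising genes, 169 were nearest to isotype in library 3, as were 69 of the 109 falling genes. The number of calls moved with it: 488 genes were called without IL-33 library 3, 124 and 175 when IL-33 library 1 or 2 was left out, and 116, 135 and 127 when isotype library 1, 2 or 3 was. A fit of only the 6 libraries compared called 463 genes, 191 of them lower, and the fit without libraries 2 and 3 of the combined treatment called 688. Those combined libraries had 15555 and 29990 genes with a count, against 19138 to 24485 in the rest of the series. Whichever library was left out, 88 of the rising and 11 of the falling genes held their call, and 57 and 47 held it only without IL-33 library 3. With the replicate number as a block 648 genes were higher and 587 lower, and 321 of the 322 calls held. In what follows, a call is said to hold throughout when it passed in all 6 fits that leave out 1 library.

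**Figure D1:**
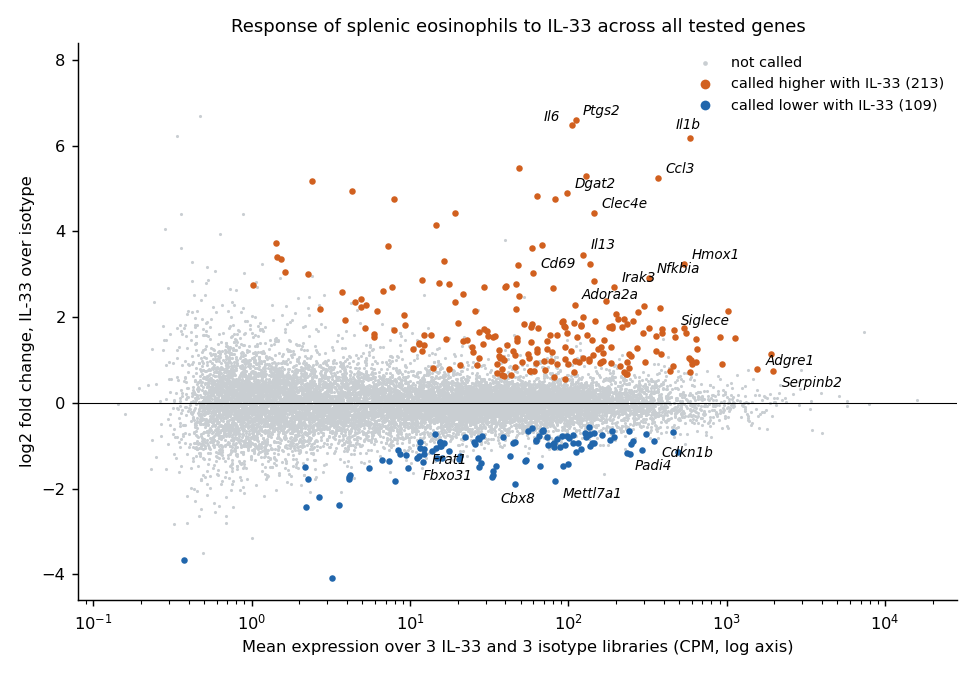
Log2 fold change of IL-33 over isotype against mean expression in CPM (log axis) for every tested gene, with the 213 genes called higher in orange, the 109 called lower in blue and selected genes labelled. Rises reach further from 0 than falls.

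The 3 named genes that rose most, Ptgs2, Il6 and Il1b, encode the inducible cyclooxygenase and the inflammatory cytokines interleukin-6 and interleukin-1 beta. The named genes that fell most and have a promoter in the RefSeq table were Cbx8, which encodes a subunit of a Polycomb repressor complex, Mettl7a1, a lipid droplet and endoplasmic reticulum methyltransferase-like protein, and Adcyap1r1, a receptor for the neuropeptide PACAP. Their promoters are shown with that of Nfkbia, the NF-kB inhibitor that NF-kB itself induces, because NF-kB, AP-1 and CREB are the factors that IL-33 signalling is known to engage. Each runs from 250 bases before to 50 bases after the RefSeq start, 5′ to 3′ on the gene's strand, from RefSeq on GRCm38.p6. Capitals mark matches on either strand to the kappa B motif (GGG and CC with any 5 bases between, where matches may overlap), TGANTCA (AP-1) or TGACGTCA (the cyclic AMP response element).
Ptgs2, chr1:150099781-150100080, plus strand: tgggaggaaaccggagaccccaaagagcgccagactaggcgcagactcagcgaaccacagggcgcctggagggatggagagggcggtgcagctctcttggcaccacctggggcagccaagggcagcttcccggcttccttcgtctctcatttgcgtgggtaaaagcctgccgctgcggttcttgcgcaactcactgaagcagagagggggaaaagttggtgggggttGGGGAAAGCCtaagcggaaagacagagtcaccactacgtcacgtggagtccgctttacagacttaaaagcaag
Il6, chr5:30012864-30013163, plus strand: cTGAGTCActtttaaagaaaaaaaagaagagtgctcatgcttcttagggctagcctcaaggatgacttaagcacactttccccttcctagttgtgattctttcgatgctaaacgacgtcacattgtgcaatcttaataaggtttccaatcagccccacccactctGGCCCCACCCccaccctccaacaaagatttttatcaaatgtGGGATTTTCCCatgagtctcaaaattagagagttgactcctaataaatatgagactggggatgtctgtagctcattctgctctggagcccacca
Il1b, chr2:129371090-129371389, minus strand: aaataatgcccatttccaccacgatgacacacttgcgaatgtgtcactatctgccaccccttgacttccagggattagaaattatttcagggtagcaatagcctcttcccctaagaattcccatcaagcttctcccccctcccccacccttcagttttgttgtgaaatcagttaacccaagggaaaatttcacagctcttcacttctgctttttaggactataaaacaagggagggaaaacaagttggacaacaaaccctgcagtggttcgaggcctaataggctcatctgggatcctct
Nfkbia, chr12:55492598-55492897, minus strand: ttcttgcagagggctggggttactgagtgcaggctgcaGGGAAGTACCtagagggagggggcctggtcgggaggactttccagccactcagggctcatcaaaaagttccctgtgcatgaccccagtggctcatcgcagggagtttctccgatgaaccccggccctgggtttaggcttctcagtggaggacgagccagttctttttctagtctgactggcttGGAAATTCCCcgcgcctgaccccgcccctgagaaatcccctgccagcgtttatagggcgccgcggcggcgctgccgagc
Cbx8, chr11:119040864-119041163, minus strand: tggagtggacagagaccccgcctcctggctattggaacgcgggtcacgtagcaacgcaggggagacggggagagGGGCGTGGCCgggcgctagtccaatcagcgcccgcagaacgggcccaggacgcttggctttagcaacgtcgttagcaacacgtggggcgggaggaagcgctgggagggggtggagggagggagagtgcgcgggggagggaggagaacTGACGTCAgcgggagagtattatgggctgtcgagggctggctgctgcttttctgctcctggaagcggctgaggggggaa
Mettl7a1, chr15:100304567-100304866, plus strand: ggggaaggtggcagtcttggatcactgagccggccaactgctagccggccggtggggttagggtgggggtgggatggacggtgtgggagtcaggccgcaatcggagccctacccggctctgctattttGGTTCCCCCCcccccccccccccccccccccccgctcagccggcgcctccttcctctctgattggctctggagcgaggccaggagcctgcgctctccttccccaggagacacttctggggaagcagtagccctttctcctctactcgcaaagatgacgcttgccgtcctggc
Adcyap1r1, chr6:55451728-55452027, plus strand: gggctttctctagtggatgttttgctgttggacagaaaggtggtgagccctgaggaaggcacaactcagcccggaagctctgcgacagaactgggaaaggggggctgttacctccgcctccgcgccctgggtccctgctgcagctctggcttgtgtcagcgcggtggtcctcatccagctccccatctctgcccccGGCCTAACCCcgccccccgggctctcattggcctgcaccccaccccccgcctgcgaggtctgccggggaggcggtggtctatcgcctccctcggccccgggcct

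The Nfkbia window held 2 kappa B matches and the Il6 window 3, of which GGGATTTTCC and GGATTTTCCC overlap and begin 44 and 43 bases before the start. Ptgs2 had 1 such match, and the Il1b window held none of the motifs. Each of the 3 falling genes also had 1 kappa B match, and Cbx8 a cyclic AMP response element 29 bases before its start. Matches to the kappa B motif are common: 50.4% of the 27025 promoters in the table held one, against 7.93% for TGANTCA and 1.88% for TGACGTCA. The RefSeq starts of Cbx8 and Mettl7a1 lie 56 and 677 bases from those of the authors' annotation. Motif shares over the called genes are not given, since promoters were matched for 79.3% of the rising and 77.2% of the falling protein-coding genes, under the 80% that was required.

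Most genes of the signalling path that IL-33 uses were not called, though the share called exceeded that over all genes. Of 19 IL-33 receptor signalling genes tested, 2 rose and none fell, or 10.5% against 2.21% of all tested genes. The median log2 fold change over the list was 0.22, and 15 of the 19 were positive. Irak3 (ENSMUSG00000020227, chromosome 10, 120141648 to 120202130 on mm10), a kinase-like inhibitor of this pathway, stood at 382, 345 and 286 CPM with IL-33, against 52.7, 45.4 and 57.5 CPM with isotype. The groups were far apart in every library, and the log2 fold change of 2.70 (SE 0.19, edgeR adjusted p = 1.5e-05) held throughout. A predicted gene overlaps it in the annotation. Mapkapk2, a kinase downstream of p38, had 761, 450 and 360 CPM with IL-33 and 211, 274 and 233 CPM with isotype. Its call held without IL-33 library 2 or 3 and was lost without any of the other 4 libraries (highest edgeR adjusted p 0.109). Under the replicate block 4 members were higher and 1 lower. The receptor genes themselves were not called: Il1rl1 had 753, 478 and 671 CPM with IL-33 and 539, 518 and 570 CPM with isotype, and Il1rap had 7.84, 4.64 and 5.80 CPM against 6.27, 3.91 and 5.57 CPM. Both ranges overlap.

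NF-kB subunits and their feedback inhibitors made up the list with the largest share of calls, 13 of 23 higher (18 with the replicate block) and none lower, with a median log2 fold change of 1.11. Nfkbia stood at 689, 671 and 360 CPM with IL-33 against 70.3, 79.5 and 79.9 CPM with isotype. Nfkbiz, an atypical inhibitor that also co-activates Il6, had 353, 271 and 138 CPM against 34.3, 35.0 and 37.7 CPM. Nfkb2 and Traf1, a subunit and an adaptor of TNF receptors, had log2 fold changes of 2.12 and 2.50. In each of these 4 genes the lowest IL-33 value was library 3 and still lay well above isotype, and the calls held throughout.

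Cytokine and chemokine genes rose in part. Of 16 cytokine genes tested 7 rose, and of 12 chemokine genes 6, with none lower in either list and median log2 fold changes of 1.01 and 2.03. With the replicate block 10 cytokine genes were higher, and of the chemokine genes 8 were higher and 1 lower. As 1 library was left out, 5 to 8 cytokine and 4 to 7 chemokine genes were higher, so not every call in these lists held throughout. Il13, the type 2 cytokine of mucus and airway responses, had 376, 218 and 87.7 CPM with IL-33 against 20.5, 20.9 and 20.8 CPM with isotype. Isotype libraries were nearly equal while IL-33 libraries spread over a wide range. Ccl3, which encodes a chemokine for granulocytes and T cells, had 1276, 666 and 215 CPM with IL-33 against 20.6, 21.9 and 14.3 CPM with isotype. Il1a, Cxcl2, Cxcl10 and Ccl4 had log2 fold changes between 4.76 and 5.47. The calls of the genes named in this paragraph held throughout.

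Other type 2 cytokine genes moved less. Il4 had 262, 180 and 177 CPM with IL-33 against 163, 118 and 136 CPM with isotype. Its libraries did not overlap, and it was not called (log2 fold change 0.57, SE 0.24, edgeR adjusted p = 0.305), but the replicate block called it (adjusted p = 0.0217). Il5 had 895, 454 and 382 CPM with IL-33 and 280, 277 and 274 CPM with isotype (edgeR adjusted p = 0.0736, and 0.0237 with the replicate block). Reads of the IL-5 transgene and of the mouse's own gene cannot be told apart here. No member was called of the 7 TNF superfamily ligands tested in their list, whose median log2 fold change was 0.71, while 1 was higher with the replicate block. Tnf itself is not in that list. It was called higher, and its call held throughout (highest edgeR adjusted p 0.00347).

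In each of the lipid lists below, more genes were called higher than lower. The cyclooxygenase gene Ptgs2 had 405, 195 and 59.9 CPM with IL-33 against 2.94, 2.51 and 1.33 CPM with isotype (log2 fold change 6.59, SE 0.81). It was nearly silent without IL-33. Of 22 genes of prostaglandin and leukotriene synthesis and reception, Ptgir, the prostacyclin receptor, was the other one that rose, at 105, 142 and 80.1 CPM against 53.7, 49.5 and 41.4 CPM. Its call held only without IL-33 library 3 and reached an edgeR adjusted p of 0.165 without isotype library 3. The list median was -0.02, and 4 members were higher with the replicate block. Alox15 and Alox5, the lipoxygenases of eosinophils, were not called, with log2 fold changes of -0.47 and -0.07.

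Dgat2 (ENSMUSG00000030747, chromosome 7, 99153658 to 99182719), which encodes the enzyme of the last step of triglyceride synthesis, had 258, 240 and 70.7 CPM with IL-33, against 6.27, 6.13 and 6.66 CPM with isotype. Even the weakest IL-33 library was far above all isotype libraries (log2 fold change 4.90, SE 0.48, edgeR adjusted p = 0.000172). Its counterpart Dgat1, which performs the same reaction, was not called and had 42.0, 46.2 and 32.7 CPM with IL-33 against 95.2, 62.2 and 56.5 CPM with isotype (edgeR adjusted p = 0.200, and 0.0118 with the replicate block). Lipa, the lysosomal lipase that frees fatty acids and cholesterol, rose (log2 fold change 1.75), and its call was lost without IL-33 library 1 or isotype library 2 or 3 (highest edgeR adjusted p 0.0533). Smpdl3b, a membrane-bound sphingomyelinase-like phosphodiesterase that restrains Toll-like receptor signalling in macrophages, had 38.8, 53.1 and 18.9 CPM with IL-33 and 2.22, 1.48 and 1.41 CPM with isotype. In the triglyceride and fatty acid list, 2 of 50 genes rose and 1, Mettl7a1, fell. In the blocked fit these were 6 and 7. Of 38 cholesterol genes 1 rose, and 5 were higher with the replicate block.

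Among metabolic enzymes and transporters, Acod1 (ENSMUSG00000022126, chromosome 14, 103046977 to 103056573), which makes the immunometabolite itaconate, had 473, 213 and 67.6 CPM with IL-33 against 8.03, 5.69 and 5.41 CPM with isotype. Slc2a6, a glucose-transporter family protein of lysosomal membranes, had 237, 266 and 193 CPM against 53.7, 65.8 and 65.4 CPM. The first varied several-fold between IL-33 libraries and the second little, and both calls held throughout. Of 46 glycolysis and hypoxia genes 3 rose and 2 fell, and 6 and 5 did under the replicate block. Besides Slc2a6 these were Ero1l, an oxidase of the endoplasmic reticulum, and Egln3, an oxygen sensor, whose calls held only without IL-33 library 2 or 3 (highest edgeR adjusted p 0.191 and 0.148). Ndrg1, a stress-response gene that hypoxia induces in other cells, fell to 5.16, 7.24 and 7.89 CPM with IL-33, against 11.9, 19.9 and 15.9 CPM with isotype, and lost its call whichever library was left out (highest edgeR adjusted p 0.244).

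Some innate receptors that sense microbes and dying cells rose. Of 37 Toll-like, NOD and C-type lectin receptor genes tested, 7 rose and 1 fell, and 10 and 4 did with the replicate block. Clec4e (ENSMUSG00000030142, chromosome 6, 123281789 to 123289870), the receptor Mincle for mycobacterial glycolipid, had 445, 288 and 103 CPM with IL-33 against 19.3, 11.7 and 7.60 CPM with isotype. Clec4n, the fungal mannan receptor Dectin-2, had 324, 352 and 67.4 CPM against 36.5, 19.6 and 22.3 CPM. IL-33 library 3 was the lowest of its group for both genes, and both calls held throughout. Clec4d and Clec4b2, which were picked after their values were seen, lie in the same stretch of chromosome 6 between 123172893 and 123289870, where all 4 tested genes rose. The calls of Clec4d and Clec4b2 held only without IL-33 library 3 (highest edgeR adjusted p 0.138 and 0.133). Tlr9, an endosomal receptor for DNA, had 90.0, 67.4 and 51.4 CPM with IL-33 against 11.6, 10.5 and 9.41 CPM with isotype, and held throughout. Cd14, a co-receptor for endotoxin, rose by a log2 fold change of 2.80, a call that held only without IL-33 library 2 or 3 (highest edgeR adjusted p 0.149).

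Surface receptors for adhesion moved in both directions. Of 35 integrin and adhesion genes 5 rose and 3 fell. Cd69, an activation marker that retains lymphocytes in tissue, had 120, 139 and 59.7 CPM with IL-33, against 10.9, 16.9 and 11.3 CPM with isotype. Icam1, a ligand of leukocyte integrins, had 152, 196 and 96.1 CPM against 38.0, 47.0 and 45.3 CPM. Itga5, the fibronectin receptor chain, and the tetraspanin gene Cd81 had log2 fold changes of 1.68 and 1.53. The libraries of the 2 groups were well separated for these 4 genes, and the calls held throughout. Adgre1, which encodes the F4/80 antigen of mouse eosinophils and macrophages, had 2283, 1590 and 2020 CPM against 1228, 1031 and 1149 CPM, and held only without IL-33 library 2 or 3 (highest edgeR adjusted p 0.152).

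Falling adhesion genes, picked after their values were seen, included Itgb7, an integrin chain of homing to gut, at 264, 198 and 454 CPM against 642, 721 and 675 CPM, and Icam2 at 11.6, 10.1 and 11.9 CPM against 19.0, 24.8 and 20.8 CPM. Both calls held only without IL-33 library 3 (highest edgeR adjusted p 0.175 and 0.140). Across fits that left out 1 library, 0 to 3 adhesion genes were lower.

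Adenosine receptors rose together. Adora2a (ENSMUSG00000020178, chromosome 10, 75316877 to 75334784), which raises cyclic AMP when extracellular adenosine binds, had 238, 177 and 130 CPM with IL-33 against 31.7, 36.3 and 43.4 CPM with isotype. Adora2b, the low-affinity receptor of the same family, had 204, 127 and 104 CPM against 43.4, 42.6 and 40.3 CPM. In both genes the order of the IL-33 libraries was the same, and neither group came near the other. The log2 fold changes were 2.29 (SE 0.22) and 1.78 (SE 0.24), and both held throughout. Of 45 receptors for chemoattractants, nucleotides and lipids, P2rx4, an ATP-gated channel, also rose (log2 fold change 0.77), with a call that held only without IL-33 library 3 (highest edgeR adjusted p 0.225). S1pr4, a sphingosine 1-phosphate receptor of blood cells, fell to 87.4, 98.8 and 95.5 CPM with IL-33, against 162, 178 and 148 CPM with isotype, and its call was lost without IL-33 library 1 or isotype library 2 (highest edgeR adjusted p 0.0614). Under the replicate block 5 of the 45 were higher and 5 lower.

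Members of the list of inhibitory and paired Ig-like receptors, which also holds activating types, rose more often than they fell. Siglece (ENSMUSG00000030474, chromosome 7, 43651070 to 43660161), which encodes an inhibitory sialic acid receptor related to Siglec-F, had 713, 851 and 556 CPM with IL-33 against 190, 233 and 234 CPM with isotype, and held throughout. Siglecf itself was not called, at 700, 535 and 858 CPM against 913, 789 and 932 CPM. Ceacam1 and Pilra, both inhibitory, had log2 fold changes of 1.31 and 1.22. The Ceacam1 call held only without IL-33 library 3, and that of Pilra was lost whichever library was left out (highest edgeR adjusted p 0.245 and 0.188). Of 30 such receptors 5 rose and 1 fell, and 10 were higher with the replicate block. The falling member was Cd200r3, an activating-type member of the CD200 receptor family, at 1.24, 0.944 and 1.19 CPM against 2.81, 2.44 and 4.39 CPM. Its call too was lost in all 6 such fits (highest edgeR adjusted p 0.218).

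Cd274 and Pdcd1lg2, neighbouring genes for the ligands PD-L1 and PD-L2 of the checkpoint receptor PD-1, were the 2 of 32 antigen presentation and co-stimulation genes that rose; with the replicate block 3 were higher and 1 lower. Cd274 had 270, 243 and 168 CPM with IL-33 against 88.9, 97.5 and 91.2 CPM with isotype, and Pdcd1lg2 had 10.6, 10.3 and 3.21 CPM against 2.35, 2.81 and 2.04 CPM. IL-33 library 3 was lowest in both, and for Pdcd1lg2 it lay close to isotype. The call of Cd274 held only without IL-33 library 2 or 3, and that of Pdcd1lg2 only without library 3 (highest edgeR adjusted p 0.0869 and 0.232).

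Survival genes rose in part. Bcl2l1, which encodes the anti-apoptotic protein Bcl-xL, had 278, 294 and 217 CPM with IL-33 against 96.0, 123 and 99.8 CPM with isotype, and Pim2, a survival kinase, had 1045, 878 and 571 CPM against 285, 243 and 215 CPM. Both calls held throughout. Of 14 BCL2 and IAP genes 3 rose, and 7 with the replicate block or without IL-33 library 3. Birc3 had 576, 613 and 588 CPM against 307, 333 and 335 CPM, and its call was lost only without isotype library 1 (edgeR adjusted p = 0.0561). Bcl2a1b, which has near-identical copies and is therefore uncertain, had a log2 fold change of 1.29 and a call that held only without IL-33 library 3 (highest edgeR adjusted p 0.224).

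Of 22 pro-apoptotic genes 1 rose and 1 fell. Fas, the death receptor, had 111, 136 and 63.5 CPM with IL-33 against 44.8, 45.6 and 39.2 CPM with isotype. Its call held only without IL-33 library 3 (highest edgeR adjusted p 0.140). In the blocked fit 3 were higher and 5 lower.

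Cytokine receptor genes rose in 3 of 35 cases, and in 8 with the replicate block. Csf1r, the receptor for the macrophage growth factor CSF-1, had 945, 790 and 795 CPM with IL-33 against 425, 407 and 467 CPM with isotype, and held throughout. Il2rg, the shared chain of the interleukin-2 receptor family, had 136, 143 and 103 CPM against 51.2, 72.6 and 62.9 CPM. Its call was lost without isotype library 1 or IL-33 library 1 (highest edgeR adjusted p 0.0617), and that of Il10ra held only without IL-33 library 3 (highest adjusted p 0.203). Il5ra, the IL-5 receptor chain, had 101, 49.1 and 144 CPM with IL-33 and 156, 115 and 136 CPM with isotype, and Ccr3, the eotaxin receptor, 1286, 1286 and 1615 CPM against 1633, 1715 and 1858 CPM. Neither was called.

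Of 39 mRNA decay genes 2 rose, and 3 were higher and 1 lower with the replicate block. Zc3h12a, which encodes the ribonuclease Regnase-1 that degrades Il6 mRNA, had 366, 415 and 291 CPM with IL-33 against 79.4, 95.7 and 103 CPM with isotype. Its relative Zc3h12c (ENSMUSG00000035164, chromosome 9, 52111344 to 52168572) had 33.4, 15.3 and 14.5 CPM against 3.79, 1.92 and 2.90 CPM. Both calls held throughout. Tfe3, a transcription factor of lysosome genes, had 84.1, 102 and 76.2 CPM against 33.9, 40.5 and 41.1 CPM and also held throughout. The lysosomal list, which includes Tfe3, had a median log2 fold change of -0.08 over 48 genes. Of these 2, Tfe3 and Ctsc, rose and 1 fell, and 4 were higher and 4 lower with the replicate block. The falling one was Ctsa, a protective carboxypeptidase, at 73.7, 66.7 and 76.9 CPM with IL-33 against 124, 125 and 134 CPM with isotype, and its call held only without isotype library 2 or IL-33 library 3 (highest edgeR adjusted p 0.0742). Ctsc, a protease that activates granule enzymes, rose by 0.61, a call that held only without IL-33 library 3 (highest edgeR adjusted p 0.208).

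**Figure D2:**
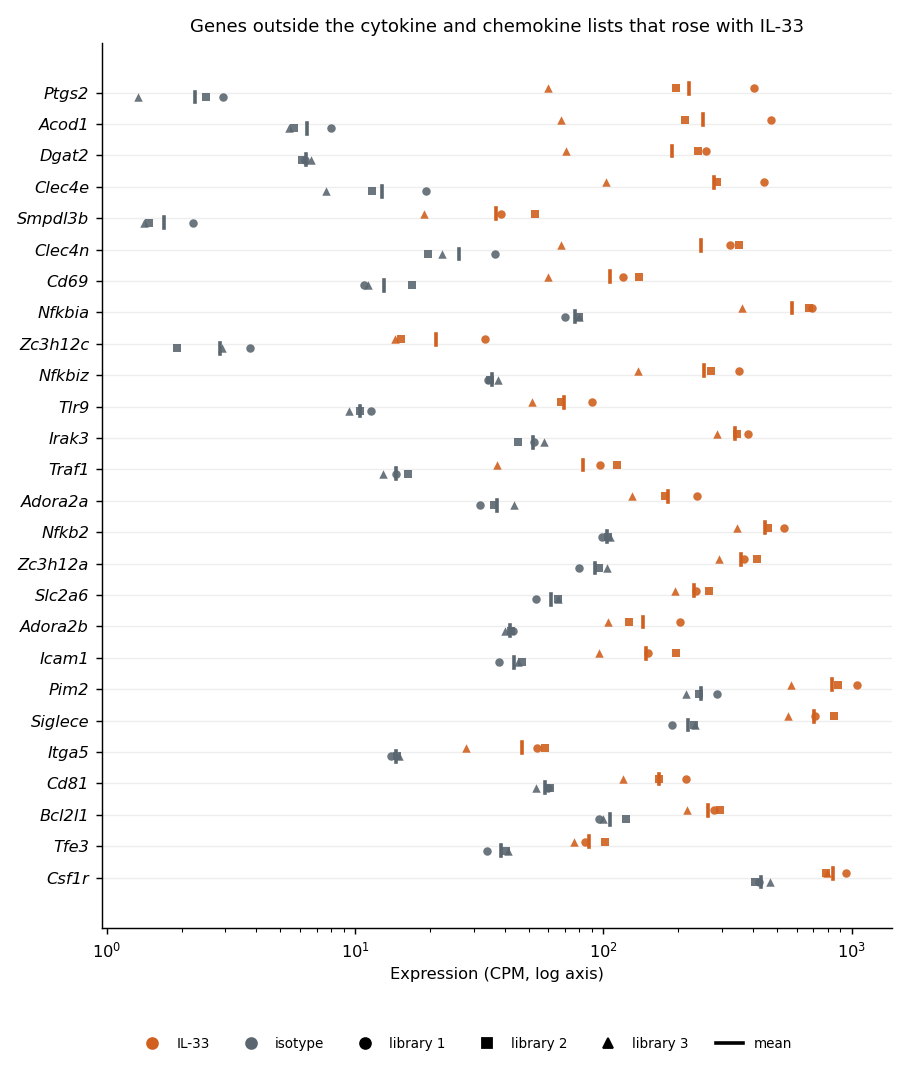
Expression in CPM (log axis) of the 26 named genes outside the cytokine and chemokine lists that rose and held their call whichever library was left out, with IL-33 libraries in orange above isotype libraries in grey; marker shapes give the library number and bars the group mean. IL-33 library 3, the triangle, is the lowest of its group in 25 of the 26 genes.

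Immediate early, oxidative stress and iron genes rose with a wide spread between IL-33 libraries. Of 29 immediate early transcription factors 7 rose, with a list median of 0.67. Egr2 had 113, 87.8 and 27.2 CPM with IL-33 against 16.9, 18.2 and 14.7 CPM with isotype, and Atf3 had 20.2, 19.1 and 5.17 CPM against 4.24, 3.62 and 2.82 CPM. IL-33 library 3 lay just above isotype in both. The calls of Egr2, Atf3, Nr4a1 and Ier3 held only without that library (highest edgeR adjusted p 0.0928, 0.164, 0.166 and 0.267), and the list count ran from 0 to 14 as 1 library was left out. With the replicate block 12 were higher and 1 lower. Pim3 and Dusp16, a kinase and a MAP kinase phosphatase that growth signals induce, also held only without IL-33 library 3 (highest edgeR adjusted p 0.166 and 0.153).

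Of 29 oxidative stress genes, which the factor NRF2 is known to drive, 5 rose. Hmox1 (ENSMUSG00000005413, chromosome 8, 75093621 to 75100589), which encodes the heme-degrading enzyme heme oxygenase-1, had 1568, 1152 and 199 CPM with IL-33 against 116, 140 and 52.8 CPM with isotype. Slc7a11, the cystine importer for glutathione synthesis, had 2348, 1873 and 722 CPM against 490, 353 and 285 CPM. For Hmox1 the lowest IL-33 library was only slightly above the highest isotype library. Srxn1, Sqstm1 and Abcc1, which repair peroxiredoxins, carry cargo to autophagy and export glutathione conjugates, had log2 fold changes of 1.75, 1.52 and 1.54. All 5 calls held only without IL-33 library 3 (highest edgeR adjusted p 0.249, for Srxn1), and the count ran from 0 to 10 as 1 library was left out. Under the replicate block 10 were higher and 2 lower.

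Heme and iron genes rose in 5 of 24 cases, and in 0 to 7 as 1 library was left out. Besides Hmox1 these included Slc11a1, a metal exporter of phagosomes, at 464, 581 and 175 CPM with IL-33 against 92.3, 124 and 108 CPM with isotype, and Alas1, the first enzyme of heme synthesis, at 638, 614 and 249 CPM against 177, 126 and 141 CPM. Both calls held only without IL-33 library 3 (highest edgeR adjusted p 0.0798 and 0.102). Spic, a transcription factor of red pulp macrophages, had 21.7, 14.6 and 4.12 CPM against 1.31, 1.33 and 0.549 CPM, and its call was lost when isotype library 1 or 3, or IL-33 library 1, was absent (highest edgeR adjusted p 0.0674). An iron gene counted in another list, the mitochondrial importer Slc25a37, fell (log2 fold change -0.80), a call that held only without IL-33 library 3.

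Csf1r, Spic and Hmox1 are 3 of the 14 monocyte and macrophage markers, and they were the called ones among the 12 tested, while with the replicate block 4 were higher and 1 lower. The marker list summed to 2921, 2244 and 1136 CPM with IL-33 against 821, 745 and 665 CPM with isotype, and most of that sum was Hmox1 and Csf1r. Of the 12 tested, 6 had a positive and 6 a negative log2 fold change. Vcam1 had 121.5, 35.9 and 46.3 CPM with IL-33 against 39.0, 18.1 and 10.8 CPM with isotype. Slc40a1 had 164.7, 166.1 and 43.0 CPM against 87.1, 62.7 and 54.2 CPM, and neither gene was called. The complement genes C1qa, C1qb and C1qc, which define tissue macrophages, stood at 0.140 to 1.63 CPM with IL-33 and 0.979 to 2.04 CPM with isotype. Ly6c2, a marker of blood monocytes, had 82.1, 68.2 and 35.3 CPM with IL-33 against 136, 97.0 and 60.0 CPM with isotype (edgeR adjusted p = 0.690, and 0.0113 with the replicate block).

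Genes of ribosome assembly were higher by small amounts, and ribosomal proteins were not. Of 56 ribosome biogenesis and MYC target genes 6 rose, 50 had a positive log2 fold change and 26 had all IL-33 libraries above all isotype libraries, against 11% of all tested genes, with a median log2 fold change of 0.31. Ddx21, an RNA helicase of the nucleolus, had 129, 136 and 140 CPM with IL-33 against 85.8, 78.7 and 81.0 CPM with isotype, and Utp4, Rrp12 and Heatr1, which process ribosomal RNA, had log2 fold changes of 0.78, 0.81 and 0.75. The libraries of each group lay close together, so differences of less than 2-fold were called. These calls were fragile: between 0 and 4 members of the list were called with 1 library left out, and 13 with the replicate block. Ddx21 held only without IL-33 library 2 or 3, Utp4 only without IL-33 library 3, Heatr1 only without isotype library 1 or IL-33 library 2, and Rrp12 in no such fit (highest edgeR adjusted p 0.088, 0.146, 0.154 and 0.164). None of 81 cytosolic ribosomal protein genes was called (median -0.12), nor of 73 nuclear-encoded respiratory chain genes (median -0.18, 62 negative; 1 lower with the block), of 13 mitochondrially encoded genes (median 0.20) or of 37 cell cycle genes (median -0.05).

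**Figure D3:**
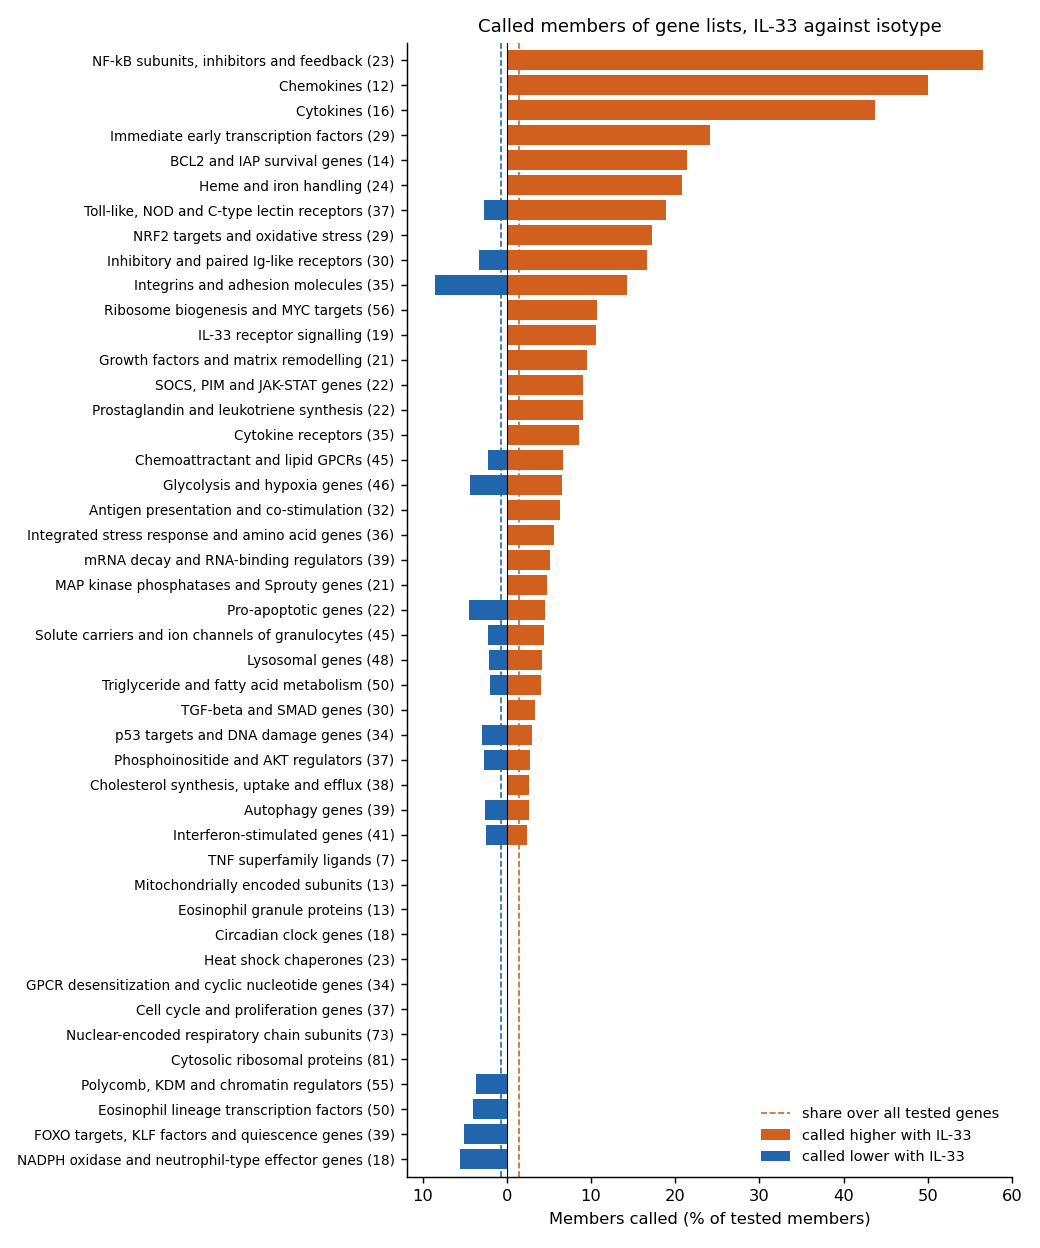
Share of the tested members of the gene lists shown (number in brackets) called higher (orange, right of 0) or lower (blue, left of 0) with IL-33, with dashed lines at the shares over all tested genes, 1.46% and 0.749%. NF-kB, chemokine and cytokine genes head the rising side, and the adhesion list has the longest bar on the falling side.

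Of the 109 falling genes 23 belonged to any of the lists examined, and of the 213 rising genes 101 did, beside 1486 of the 14547 tested genes. The lists were chosen with earlier results of these data known. The 20 named genes with the largest decrease included regulators of chromatin, of Wnt and PI3 kinase signalling, of protein breakdown and of nucleotide metabolism, and no cytokine. The IL-33 libraries of each lay below all isotype libraries, which the naming rule required. Of these 20, 7 held their calls throughout, 3 held only without IL-33 library 3 and 3 held in none of the 6 fits.

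Mettl7a1 (ENSMUSG00000054619, chromosome 15, 100304140 to 100328662) had 37.3, 25.8 and 45.2 CPM with IL-33 against 147, 124 and 115 CPM with isotype. Fbxo31 (ENSMUSG00000052934, chromosome 8, 121549440 to 121578806), a ubiquitin ligase subunit that targets cyclin D1, had 13.1, 13.5 and 19.0 CPM against 56.2, 49.7 and 44.8 CPM. For both genes the highest IL-33 library lay far below the lowest isotype library. Fam117a (ENSMUSG00000038893, chromosome 11, 95337018 to 95381872) had 28.2, 31.6 and 45.6 CPM against 91.8, 102 and 98.4 CPM, and Tcp11l2 had 51.7, 41.0 and 54.5 CPM against 178, 114 and 116 CPM. The log2 fold changes were -1.83 (SE 0.25), -1.72 (SE 0.21), -1.47 (SE 0.19) and -1.47 (SE 0.24), and all 4 held throughout.

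Signalling brakes and activators fell as well. Sgk1 (ENSMUSG00000019970, chromosome 10, 21882184 to 21999903), a kinase activated by PI3 kinase signals, had 29.0, 22.2 and 41.3 CPM with IL-33 against 80.4, 79.8 and 72.7 CPM with isotype, and held throughout. Pik3ip1, a membrane inhibitor of PI3 kinase, had 4.77 to 7.79 CPM against 14.6 to 20.8 CPM. Its call was lost without isotype library 3 or IL-33 library 1 (highest edgeR adjusted p 0.0833). Pik3ap1, an adaptor that activates PI3 kinase, rose at 581, 409 and 348 CPM against 157, 119 and 160 CPM, a call that held only without IL-33 library 2 or 3 (highest edgeR adjusted p 0.0957). These were the 2 called genes of 37 phosphoinositide and AKT regulators, of which 4 were higher and 4 lower with the replicate block.

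Frat1 (chromosome 19, 41829970 to 41832583) and Frat2 (chromosome 19, 41845972 to 41848132), adjacent genes for GSK3-binding proteins of Wnt signalling, fell together. Frat1 had 14.3, 17.2 and 15.3 CPM with IL-33 against 37.4, 37.1 and 40.2 CPM with isotype, and Frat2 had 12.5, 17.1 and 13.4 CPM against 41.9, 38.8 and 39.7 CPM. Replicates agreed closely in both groups. Frat1 held throughout, and Frat2 was lost only without IL-33 library 1 (edgeR adjusted p = 0.0512). The 2 genes are related in sequence, and how reads shared between them were counted is not given in the sources used here.

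Cbx2 (chromosome 11, 119022962 to 119031270) and Cbx8 (chromosome 11, 119036305 to 119040969), neighbours that encode alternative chromobox subunits of Polycomb repressive complex 1, also fell together. Cbx2 had 18.3, 9.44 and 19.3 CPM with IL-33 against 62.1, 46.3 and 43.7 CPM with isotype, and Cbx8 had 18.9, 8.58 and 31.5 CPM against 68.1, 70.4 and 79.5 CPM. IL-33 library 2 was lowest for both. They were the 2 called genes of 55 Polycomb and chromatin regulators, whose median log2 fold change was 0.01, and with the replicate block 3 were higher and 5 lower. The Cbx2 call was lost without isotype library 1 or IL-33 library 1 or 2, and that of Cbx8 held only without IL-33 library 3 (highest edgeR adjusted p 0.0752 and 0.108).

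Enzymes of nucleotide and sugar metabolism and of protein citrullination were among the falling genes. Dck (ENSMUSG00000029366, chromosome 5, 88764996 to 88783281), the deoxycytidine kinase of nucleoside salvage, had 25.5, 27.8 and 36.1 CPM with IL-33 against 85.8, 77.4 and 66.2 CPM with isotype, and held throughout. Padi4, which converts histone arginine to citrulline in extracellular trap formation, had 154, 102 and 177 CPM against 386, 330 and 266 CPM. It was the 1 called gene among 18 NADPH oxidase and neutrophil-type effector genes (median log2 fold change -0.29; 1 higher and 3 lower with the replicate block) and was lost only without isotype library 1 (edgeR adjusted p = 0.0542). Of 14 tested neutrophil markers 11 had a negative and 3 a positive log2 fold change, and none was called. Retnlg, the most abundant with Ngp, had 522, 390 and 195 CPM with IL-33 against 853, 911 and 398 CPM with isotype. Ngp had 688, 268 and 130 CPM against 944, 413 and 257 CPM. Ly6g, one of the lowest, had 0.279 to 3.72 CPM with IL-33 and 1.88 to 5.87 CPM with isotype. The part of neutrophil RNA in the fall of Padi4 was not tested. Ldhc, a lactate dehydrogenase otherwise known from testis, had 17.8, 17.5 and 14.7 CPM with IL-33 against 55.2, 51.2 and 43.3 CPM with isotype, and Khk, the fructose kinase, 8.16, 3.78 and 7.33 CPM against 14.8, 17.6 and 14.5 CPM. Despite the gap between groups, both lost their calls whichever library was left out (highest edgeR adjusted p 0.124 and 0.159).

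Of 39 FOXO targets, KLF factors and genes of quiescence 2 fell, while 5 were higher and 8 lower with the replicate block. Fbxo31 was one, and Cdkn1b, the cell cycle inhibitor p27, was the other, at 233, 218 and 281 CPM with IL-33 against 447, 444 and 455 CPM with isotype. Isotype values of Cdkn1b were almost equal, and its call was lost without isotype library 3 or IL-33 library 1 (highest edgeR adjusted p 0.0546). Klf2, a factor that holds lymphocytes in circulation, had 219, 250 and 240 CPM with IL-33 and 351, 504 and 387 CPM with isotype and was not called (edgeR adjusted p = 0.0761, and 0.00788 with the replicate block). Mxi1 and Rarg, a MYC antagonist and a retinoic acid receptor, were the 2 of 50 lineage transcription factors that fell (4 higher and 5 lower with the replicate block), with log2 fold changes of -0.70 and -1.01, and both held only without IL-33 library 3 (highest edgeR adjusted p 0.216 and 0.151). Gata1 and Cebpe, which establish the eosinophil lineage, were not called (log2 fold changes -0.07 and -0.31).

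**Figure D4:**
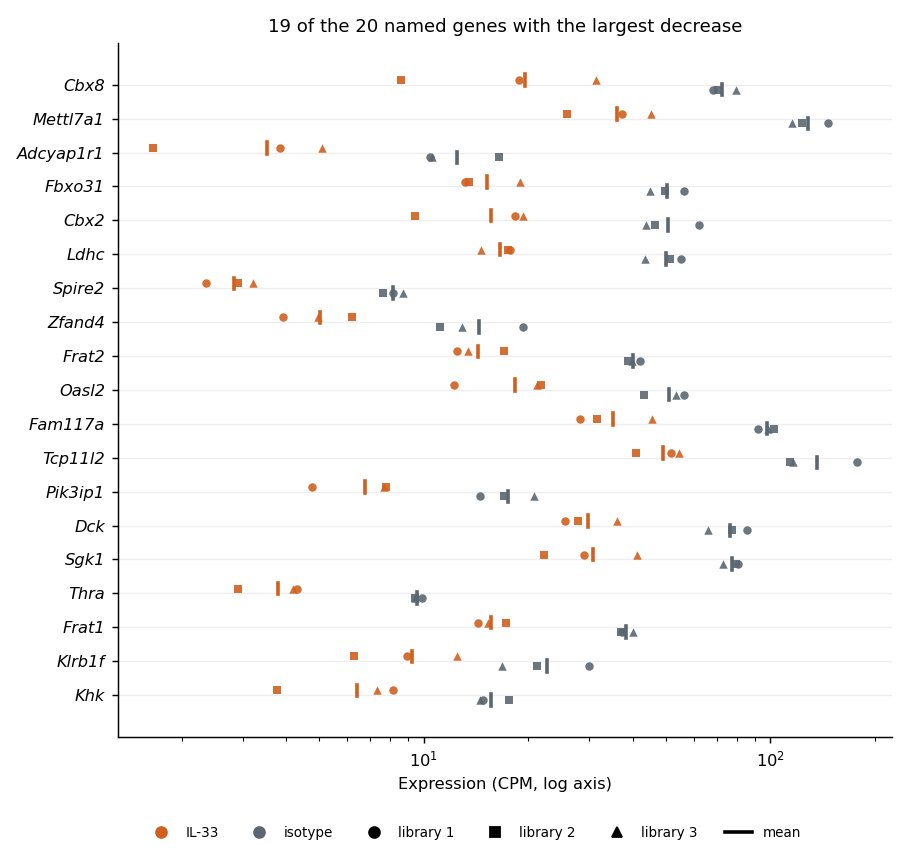
Expression in CPM (log axis) of 19 of the 20 named genes with the largest decrease, with IL-33 libraries in orange above isotype libraries in grey; marker shapes give the library number and bars the group mean. In every gene the IL-33 libraries lie to the left of all isotype libraries, as the rule that chose the genes required. Values run from 1.65 CPM for Adcyap1r1 with IL-33 to 178 CPM for Tcp11l2 with isotype.

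Single interferon-response and autophagy genes moved against their lists or apart from them. Among 41 interferon-stimulated genes Cxcl10 rose and Oasl2, an antiviral gene, fell to 12.2, 21.7 and 21.2 CPM with IL-33, against 56.3, 43.1 and 53.5 CPM with isotype. The Oasl2 call was lost only without isotype library 1 (edgeR adjusted p = 0.0542), and the list median was -0.13. With the replicate block 2 of 39 autophagy genes were higher and 4 lower. Without it the cargo receptor Sqstm1 rose and Map1lc3b, which encodes the membrane protein LC3B, fell to 195, 194 and 172 CPM with IL-33, against 306, 294 and 282 CPM with isotype. Map1lc3b held in no fit with a library left out (highest edgeR adjusted p 0.209). Thra and Klrb1f, a thyroid hormone receptor and a lectin-like receptor of killer cells, had log2 fold changes of -1.33 and -1.29. The first held in no such fit and the second only without IL-33 library 3 (highest edgeR adjusted p 0.169 and 0.222). Spire2, an organizer of actin filaments, had a log2 fold change of -1.53 and was lost when isotype library 1 or 3, or IL-33 library 1, was absent (highest edgeR adjusted p 0.0707). Zfand4 had -1.52 and was lost without isotype library 1 or IL-33 library 1 (highest edgeR adjusted p 0.0943). Adcyap1r1 had 3.85, 1.65 and 5.10 CPM with IL-33 against 10.4, 16.5 and 10.6 CPM with isotype, and held only without IL-33 library 3 (highest edgeR adjusted p 0.182).

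Transporters and other signalling lists had scattered calls. Of 45 solute carriers and channels 2 rose and 1 fell, and 4 and 3 did with the replicate block. Slc39a4, a zinc importer, had 73.4, 125 and 54.3 CPM with IL-33 against 33.9, 28.8 and 31.0 CPM with isotype, and Slc20a1, a phosphate importer, 23.8, 28.3 and 28.3 CPM against 13.7, 16.0 and 13.9 CPM, while the mitochondrial iron importer Slc25a37 fell to 13.2, 15.3 and 20.1 CPM against 30.4, 26.3 and 27.7 CPM. The call of Slc39a4 was lost without isotype library 2 or 3 and that of Slc20a1 without isotype library 1 or 3 (highest edgeR adjusted p 0.0655 and 0.0671), and Slc25a37 held only without IL-33 library 3 (highest adjusted p 0.225). Skil, a brake on SMAD signalling, was the 1 of 30 TGF-beta genes that rose (3 higher and 2 lower with the block; log2 fold change 1.15, held only without isotype library 3 or IL-33 library 3, highest edgeR adjusted p 0.108). Among 21 growth factor and matrix genes, of which 5 were higher and 2 lower with the block, the protease gene Mmp14 rose by a log2 fold change of 3.36 at 1.54 to 3.53 CPM with IL-33 and 0.196 to 0.369 CPM with isotype, and the protease inhibitor gene Serpinb2 rose at 2577, 2357 and 2386 CPM against 1383, 1756 and 1211 CPM. Mmp14 was lost without isotype library 1 or 3, and Serpinb2 held only without isotype library 2 or IL-33 library 3 (highest edgeR adjusted p 0.0624 and 0.160). No gene was called of 23 heat shock chaperones (median 0.24; 5 higher with the replicate block), of 34 GPCR desensitization and cyclic nucleotide genes (median -0.14; 1 higher and 2 lower with the block) or of 18 circadian clock genes (median 0.12). Among 36 genes of the integrated stress response and amino acid use the 2 that rose were Slc7a11 and Acod1, and among 34 p53 targets Fas rose and Fbxo31 fell. In the blocked fit 6 and 1 of the first list and 6 and 6 of the p53 list were higher and lower.

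Granule protein genes were not called in either direction. Of 13 tested, 11 had a negative log2 fold change, with a median of -0.41, and 3 were lower with the replicate block. Epx, which encodes eosinophil peroxidase, had 498, 176 and 192 CPM with IL-33 and 637, 277 and 123 CPM with isotype, and Prg2, the major basic protein gene, 2005, 922 and 622 CPM against 2826, 1553 and 658 CPM. In both groups library 1 was the highest, several-fold above library 3, so the spread between libraries exceeded the difference between groups. The sign of both genes' fold change depended on which library was kept.

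Genes that changed were often neighbours. Of the 213 rising genes 57 (26.8%) had another rising gene within 100000 bases, against 5.3% of all tested genes, and of the 109 falling genes 20 (18.3%) had another falling one, against 3.61%. Besides the Clec4, Frat and Cbx genes, runs of called genes held Ccl3 and Ccl4 on chromosome 11, Cd274 and Pdcd1lg2 on chromosome 19, Trem1, Trem3 and Treml4 on chromosome 17, and 5 genes around Siglece on chromosome 7 between 43579610 and 43678298. On chromosome 8, Fbxo31 and Map1lc3b fell. Members of such runs can share ancestry, and since no strand setting is given in the sources used here, counts of overlapping or antisense genes cannot be told apart: 7 of the 23 rising runs hold overlapping annotation, such as Il1b with its antisense gene.

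The same cytokine was also given to cells that received the anti-Siglec-F antibody, in 3 libraries against 3 with the antibody alone, all of them outside the 6 libraries compared above but in the same fit. There 643 genes were called, 393 higher and 250 lower, or 2.7% and 1.72% of all tested genes and 4.42% together. Of the 213 genes that rose with IL-33 alone 161 were called higher there too, which is 75.6% of the 213 and 41% of the 393. Of the 109 that fell 45 were called lower, which is 41.3% of the 109 and 18% of the 250. No gene was called in opposite directions. All 213 rising genes had a positive log2 fold change in these libraries, against 47.1% of all tested genes, with a median of 1.41. Of the falling genes 106 were negative, against 52.9% of all, with a median of -0.71. The 3 exceptions were Inafm1, Trp53i13 and Cd200r3, with log2 fold changes of 0.03, 0.08 and 0.04. Of the 20 named falling genes 16 were called lower in both settings. Sgk1, Fbxo31 and Mettl7a1 had log2 fold changes of -0.97, -1.28 and -1.46 with the antibody, and Dgat2, Clec4e and Adora2a of 5.10, 4.02 and 1.97.

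**Figure D5:**
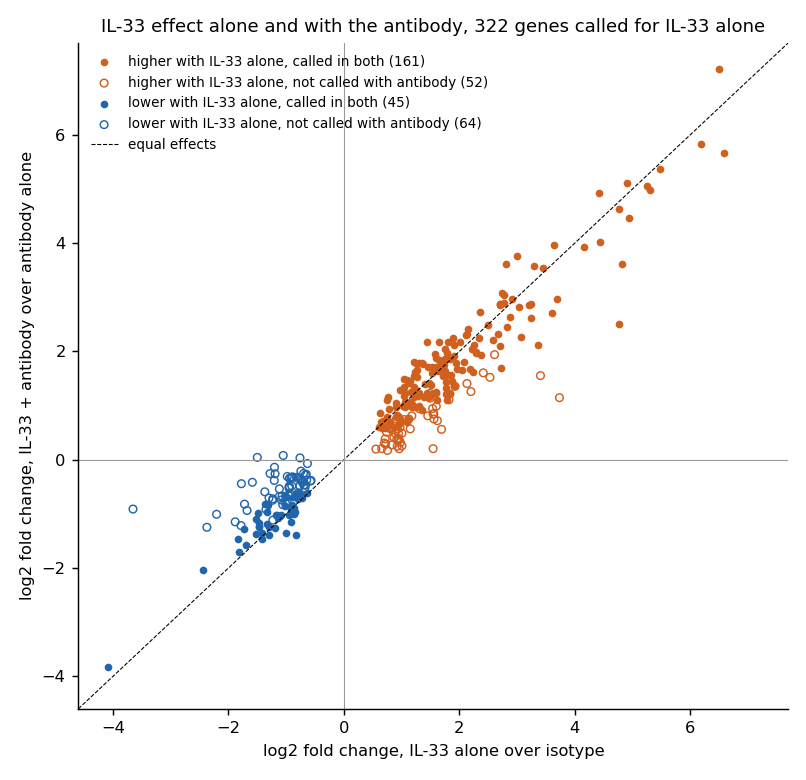
Log2 fold change of IL-33 with the antibody over the antibody alone against that of IL-33 alone over isotype, for the 322 genes called for IL-33 alone; filled points were called in both and the dashed line marks equal effects. Rising genes lie near the line, and 97 of the 109 falling and 139 of the 213 rising genes lie closer to 0 on the vertical axis than on the horizontal one, by which the genes were chosen.

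The difference between the effects of IL-33 with and without the antibody was tested for every gene. No gene passed in edgeR (smallest adjusted p = 0.583; 1150 genes, 7.91%, had an unadjusted p under 0.05, among them 31 of the 322), DESeq2 called 3 (Scand1, Tmem160 and F13a1) and limma voom called 0. None of the 3 was called for IL-33 alone. Without library 1 of the combined group 4 genes passed. A p above the threshold does not show that the effects were equal. The counts with the antibody themselves depended on single libraries: 2839 genes were called without combined library 1, 124, 138 and 206 without antibody libraries 1, 2 and 3, 209 without combined library 3, and 391 and 374 without isotype libraries 1 and 3. With the replicate block 350 were called there, and the shared counts were 188 higher and 66 lower. Leaving out isotype library 1, 2 or 3 gave 11, 17 or 18 shared falling and 89, 100 or 89 shared rising genes. Leaving out IL-33 library 1, 2 or 3 gave 11, 18 or 99 shared falling genes, and leaving out the first of these gave 91 shared rising ones.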

How the data were processed

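RNA was sequenced from 12 libraries, 4 groups of 3, and the 6 with IL-33 alone or isotype are the subject. The authors deposited raw counts per gene, all whole numbers by their values and named raw per the file headers, made on mm10 with fastp, STAR 2.6.1d and featureCounts 1.5.0-p3, per the submitters' processing notes; the sources used here give neither annotation release nor strand setting. Total counts ran from 12046727 to 15686225 in these 6 libraries. The median SD of log2 CPM over 9178 genes was 0.213 with IL-33 and 0.157 with isotype. In the other groups it was 0.179 with the antibody alone and 0.337 with the antibody and IL-33. Counts of all 12 libraries entered 1 quasi-likelihood fit (edgeR 4.0.16, R 4.3.3) after TMM scaling and filterByExpr by group, with no block; its F test was adjusted by Benjamini-Hochberg over 14547 genes at 0.05. CPM use the TMM factors, and an SE is the fold change over the root of F.

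Equal replicate numbers correlated in their deviations from group means in the 3 pairs (0.241, 0.239 and 0.167, all over 0.1, as worked out from the data; the labels state no pairing), so values with the replicate number as a block, fitted on the 6 libraries alone, are given beside the calls and list counts that they change most. Alternatives were RLE scaling, DESeq2 1.42.0, limma 3.58.1 voom, no and a strict filter, fewer libraries and each library left out. Named genes are the 12 most positive and 20 most negative called protein-coding genes (mean 5 CPM or more, no predicted gene models, no overlap between groups), up to 4 called members of each of 46 lists and 10 marker lists, and a few fixed genes. The members, lists and rule were chosen with earlier results of these data known, so lists are described by counts and medians without a test. The authors' normalized table was not used here, and a few named genes and 1 list are not reported here.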

Additional observations from a re-analysis of the deposited data

How the results depend on the processing

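The count of genes called for IL-33 against isotype (322; 213 higher, 109 lower, 224 at least 2-fold) was close to that with RLE scaling (315) and the strict filter (350). It rose to 806 (469 higher, 337 lower, 354 at least 2-fold) with DESeq2 and to 683 (420, 263 and 387) without the expression filter. The replicate block gave 1235 (648, 587 and 429) and voom 2089 (1002, 1087 and 669). Without combined libraries 2 and 3 it was 688 (404 higher, 284 lower), and 191 genes were lower in a fit of only the groups compared, with 463 called. The split of calls was 66.1% higher and moved to 52.5% with the block and 48% with voom. As 1 library was left out the counts ran from 116 to 488, with 97 to 307 higher, 18 to 181 lower and 105 to 370 at least 2-fold. With the antibody 643 genes were called, against 1627 with DESeq2, 1600 without the filter, 242 with only the groups compared, 350 with the block, 424 with voom and 124 to 2839 with 1 library left out. Shared rising genes (161) numbered 313 with DESeq2 and 293 without the filter, and 89 to 229 with 1 library left out. Shared falling genes (45) numbered 162 with DESeq2, 143 without the filter, 13 with only the groups compared, 114 with voom and 11 to 99 with 1 library left out. The difference of the effects gave 0 genes, 3 with DESeq2, 86 without the filter and 0 to 4 with 1 library left out. Of the 322 calls, 312 held with RLE scaling, 320 with DESeq2, 322 with voom and 303 with only the groups compared. Among uncalled genes the sign turned for Il1rap (-0.0099 without IL-33 replicate 1; -0.0099 to 0.40 with 1 library left out), for Epx (0.77 with voom; -0.91 to 0.57 with 1 library left out, above 0 without isotype replicate 1 or IL-33 replicate 2 or 3) and for Prg2 (0.43 with voom; -1.13 to 0.14 with 1 library left out, above 0 without isotype replicate 1). No named gene that was called turned its sign. The cause of these changes was not tested. With 3 libraries a group, a gene not called may still have changed by less than this spread can show, and lowly expressed genes rest on few counts.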

Other observations

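Some genes whose calls did not rest on any single library belonged to none of the lists. With a mean of at least 5 CPM, 43 rising and 4 falling genes outside the lists and the naming rule held their call whichever library was left out, and the genes named here were chosen after their values were seen. Hcar2, a receptor for niacin and ketone bodies, had 191, 94.7 and 43.4 CPM with IL-33 against 11.2, 9.45 and 6.19 CPM with isotype. Itsn1 and Ralgds, which encode exchange factors for small GTPases, had 39.6, 30.2 and 19.6 CPM against 3.79, 2.58 and 2.66 CPM, and 133, 77.1 and 50.2 CPM against 10.8, 7.68 and 9.64 CPM. These 3 genes rose about as steeply as Il13, and IL-33 library 3 was the lowest of its group for each. Nadk, the kinase that makes NADP, was far more even, at 1450, 1238 and 1360 CPM with IL-33 against 467, 451 and 487 CPM with isotype (log2 fold change 1.53, SE 0.16, edgeR adjusted p = 0.000244). Slc6a4, the serotonin transporter gene, had 306, 294 and 233 CPM against 96.2, 69.6 and 79.7 CPM, and Cd55, which protects cells from complement, 126, 100.1 and 119 CPM against 44.6, 38.1 and 32.1 CPM.

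Lipid-related genes were also among them. Agpat5, an acyltransferase of phosphatidic acid synthesis, had 174, 155 and 102 CPM with IL-33 against 38.3, 36.2 and 41.3 CPM with isotype, and Olr1, a receptor for oxidized LDL, 446, 315 and 252 CPM against 102, 81.9 and 111 CPM. Aoah, which removes acyl chains from endotoxin, had a log2 fold change of 1.59. The 4 falling genes were Tmem71, Slc12a9, Dap and the long non-coding RNA gene E230014E18Rik, with log2 fold changes of -1.09, -1.02, -0.98 and -1.31. Tmem71 had 174, 158 and 229 CPM with IL-33 against 440, 337 and 415 CPM with isotype. With the antibody present, 41 of the 43 rising genes and 3 of the 4 falling genes were called in the same direction.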
